A study of Rattus norvegicus with 4 samples.

Results

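Sterol and fatty acid metabolism genes were followed in rat neural stem cells and in the cells grown from them, as a set of 37 genes that covers cholesterol synthesis, the control of the SREBP transcription factors, fatty acid synthesis and lipid export. The members were picked by name for their roles, with earlier results of these data known. Their shares beside those of all genes are therefore descriptions and not tests. Of the 37 genes, 34 had a named probe, out of 8927 named genes on the arrays. Srebf1, the SREBP gene of fatty acid synthesis, Stard4, a carrier of sterols between membranes, and Npc1, which moves cholesterol out of lysosomes, had none and are not analysed here.

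The 4 groups were measured with 1 array each on 1-colour Cy3 arrays, all from Fisher 344 rats. OB Neu are cells labelled as neurons that were derived from stem cells of the olfactory bulb, and OB NSC are those olfactory bulb stem cells. HPC Neu are cells labelled as neurons that were derived from hippocampal stem cells, and HPC NSC are those hippocampal stem cells. No group carried a genetic change or a drug that the labels name, and the medium and time used to make neurons are not given in the sources used here. Each array held RNA mixed from 3 independent experiments, so it averages over them and shows no spread between cultures. A difference between arrays therefore has no replicate check.

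Both neuron arrays lay on 1 slide and both stem cell arrays on the other, per the file headers. Slide and cell state cannot be told apart, while olfactory bulb and hippocampus were always compared within a slide. Of the probes, 74.0% were well above background in OB Neu, 63.8% in OB NSC, 66.6% in HPC Neu and 60.2% in HPC NSC. No spot was saturated.

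Cell type markers went against the neuron label in part, so "neuron" below means the array's label. Of 8 neuron markers with a probe, 4 were lower by 2-fold or more on the neuron arrays of both sources (Tubb3, Elavl3, Mapt and Syp) and 2 were higher (Snap25 and Stmn2). Their summed signal, in multiples of each array's 75th percentile, was 2.26 in OB Neu against 37.6 in OB NSC, and 6.63 in HPC Neu against 47.5 in HPC NSC. Markers of dividing cells summed to 36.4 in OB Neu against 220.4 in OB NSC, and to 36.4 in HPC Neu against 274.4 in HPC NSC, with 5 of 5 lower in both sources. All 6 measured fibroblast and pericyte markers were higher, at 842.4 in OB Neu against 0.153 in OB NSC and 597.7 in HPC Neu against 0.129 in HPC NSC. Of these 6, Col3a1, Dcn, Lum and Pdgfrb were not well above background in either stem cell group. The 5 adipocyte markers with a probe summed to 408.4 in OB Neu against 0.0222 in OB NSC and to 98.4 in HPC Neu against 0.0338 in HPC NSC. None of the 5 was well above background in the stem cells, and Lep was not on any array. Neural stem cell markers summed to 99.0 in OB Neu against 81.4 in OB NSC and to 56.6 in HPC Neu against 83.9 in HPC NSC. Oligodendrocyte markers summed to 32.9 in OB Neu against 108.4 in OB NSC and to 32.8 in HPC Neu against 178.8 in HPC NSC, although 3 of 7 were higher and 3 lower in the olfactory bulb, and 1 of 6 higher and 2 lower in the hippocampus. The part of these cell types in the results below was not tested. In such bulk samples, fewer cells of a type and less RNA per cell cannot be told apart.

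Cholesterol is built from acetyl-CoA through mevalonate and squalene, in a chain of enzymes whose genes are switched on by SREBP proteins when sterols are scarce. INSIG proteins hold SREBP in the endoplasmic reticulum when sterols are plentiful. Liver X receptors (LXR) act in the opposite sense: they sense oxidised sterols and switch on genes of cholesterol export, among them Abca1 and Abcg1, and of fatty acid synthesis. In the brain, cholesterol is made locally because lipoproteins of the blood do not cross the blood-brain barrier, and astrocytes supply neurons with cholesterol on particles that carry apolipoprotein E.

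Promoters were available for 28 of the 37 members, as RefSeq sequences of the rat assembly GRCr8 that run from 250 bases before to 50 bases after the gene's start. Promoters of 5 genes are shown to let the cholesterol synthesis genes be set beside a control gene and an export gene. Hmgcs1, Fdps and Mvd encode mevalonate enzymes, Insig1 encodes an SREBP inhibitor and Abca1 a cholesterol exporter. Each is written 5′ to 3′ on the gene's own strand, with matches to the motifs searched in capitals.
Hmgcs1, chr2:53382054-53382353, plus strand: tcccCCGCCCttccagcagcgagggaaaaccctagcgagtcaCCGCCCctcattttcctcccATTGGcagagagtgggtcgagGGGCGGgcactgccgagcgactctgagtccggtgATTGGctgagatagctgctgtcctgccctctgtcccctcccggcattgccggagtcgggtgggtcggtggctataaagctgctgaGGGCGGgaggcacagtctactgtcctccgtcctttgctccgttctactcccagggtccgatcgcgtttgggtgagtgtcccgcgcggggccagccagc
Fdps, chr2:176804767-176805066, minus strand: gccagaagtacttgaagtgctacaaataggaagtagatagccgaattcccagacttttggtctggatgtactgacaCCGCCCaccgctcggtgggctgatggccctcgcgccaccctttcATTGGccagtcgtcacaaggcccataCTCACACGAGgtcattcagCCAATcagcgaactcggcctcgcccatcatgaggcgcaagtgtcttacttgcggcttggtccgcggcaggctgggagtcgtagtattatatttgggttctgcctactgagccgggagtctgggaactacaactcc
Mvd, chr19:67414925-67415224, minus strand: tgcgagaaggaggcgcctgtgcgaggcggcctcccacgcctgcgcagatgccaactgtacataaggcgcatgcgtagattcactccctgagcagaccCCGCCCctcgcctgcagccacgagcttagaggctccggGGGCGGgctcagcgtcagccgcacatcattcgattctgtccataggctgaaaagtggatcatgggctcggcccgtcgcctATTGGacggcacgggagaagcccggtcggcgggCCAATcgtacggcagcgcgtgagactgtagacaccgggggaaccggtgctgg
Insig1, chr4:8057720-8058019, minus strand: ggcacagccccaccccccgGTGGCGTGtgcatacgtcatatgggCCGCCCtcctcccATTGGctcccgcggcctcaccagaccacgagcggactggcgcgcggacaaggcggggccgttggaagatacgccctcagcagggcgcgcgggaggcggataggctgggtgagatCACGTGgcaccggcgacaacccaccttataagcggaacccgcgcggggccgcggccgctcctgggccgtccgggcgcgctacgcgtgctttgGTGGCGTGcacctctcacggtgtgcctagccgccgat
Abca1, chr5:72596424-72596723, minus strand: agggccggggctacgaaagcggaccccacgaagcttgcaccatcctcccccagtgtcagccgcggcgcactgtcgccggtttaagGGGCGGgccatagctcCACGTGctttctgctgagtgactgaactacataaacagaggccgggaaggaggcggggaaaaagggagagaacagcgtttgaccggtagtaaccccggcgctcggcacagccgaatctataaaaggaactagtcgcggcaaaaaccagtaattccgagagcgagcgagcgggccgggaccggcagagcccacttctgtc

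The letters CCAAT, the site of the factor NF-Y, stood on either strand in a promoter of 18 of 28 members (64.3%). They stood in 37.5% of all 33469 promoters and 38.5% of those of genes on the arrays. Here a member counted once if any of its promoters held the letters, while the other shares count each promoter. GGGCGG, the GC box bound by Sp1, stood in 21 of 28 (75%), beside 33.1% of all promoters and 47.4% of those of array genes. Hmgcs1, Fdps and Mvd each held 2 CCAAT matches, Insig1 held 1, and no CCAAT lay in the Abca1 window, while Apoe, an export gene that also rose, held it. CACGTG, the E-box, stood in 3 member promoters, those of Abca1, Insig1 and Sc5d (10.7%, beside 6.42% of all promoters). The classical sterol regulatory element was in none of the 28 and in 0.13% of all promoters, and its core TCACNCCAC was in none of the 28 and in 1.12%. The DR4 element, the direct repeat of AGGTCA that LXR binds, was in none of the 28 and in 2 of all promoters. Those counts of 0 led to a search, after the fact, for the sterol element described in the rat Fdps promoter and for the shorter core CACNCCAC. The Fdps element was found in Fdps alone among the members (18 of all promoters hold it); it is the 10-base run in capitals between the CCAAT pair, and its first base lies 104 bases before the start. The shorter core stood in Acat2, Ebp, Fads1 and Insig1 (14.3%, beside 5.80% of all promoters). No matches overlapped in the promoters shown. A match describes letters in a 300-base window and is not a bound site.

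Levels below are log2 signals relative to the array's 75th percentile over non-control probes, so that 0 is the 75th percentile itself and 1 unit is 2-fold. Levels of different genes come from different probes and are not set against each other. Scanner error alone gave a difference between 2 bright spots a standard error of 0.204 log2 units. A gene counted as higher or lower at 1 log2 unit or more. The verbs "rose" and "fell" are kept for genes that passed the additive limma fit, and a gene that did not pass is not thereby shown to be the same.

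Neurons differed from stem cells in opposite ways at the ends of the pathway: of 18 genes that make cholesterol, 13 were lower by 2-fold or more in both sources, and of 6 genes of LXR signalling and export, 5 were higher in both. In the olfactory bulb, 15 of 34 members were lower in OB Neu than in OB NSC, where 20% of all 7022 genes measured were lower, and 6 were higher, where 26.9% of all genes were. With spike-in scaling these counts were 27 and 6, and the median of all genes was -0.90 with that scaling. In the hippocampus, 24 of 34 were lower in HPC Neu than in HPC NSC, against 26.9% of 6659 genes, and 5 were higher, against 21.8%. The median member differed by -0.90 in the olfactory bulb and by -1.81 in the hippocampus, while the median of all genes was 0.08 and -0.32. In both sources, 15 members (44.1%) were lower and 5 (14.7%) higher, beside 16.8% and 18.5% of the 6568 genes measured in both, and no member passed 2-fold in opposite directions. Across the 34 members, Pearson's r between the olfactory bulb and hippocampal changes was 0.976 and Spearman's rho 0.856. Within the 18 cholesterol synthesis genes they were lower, at 0.702 and 0.624. These values describe genes, not replicates, and the neuron and stem cell arrays of the 2 sources shared the same slides.

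**Figure D1:**
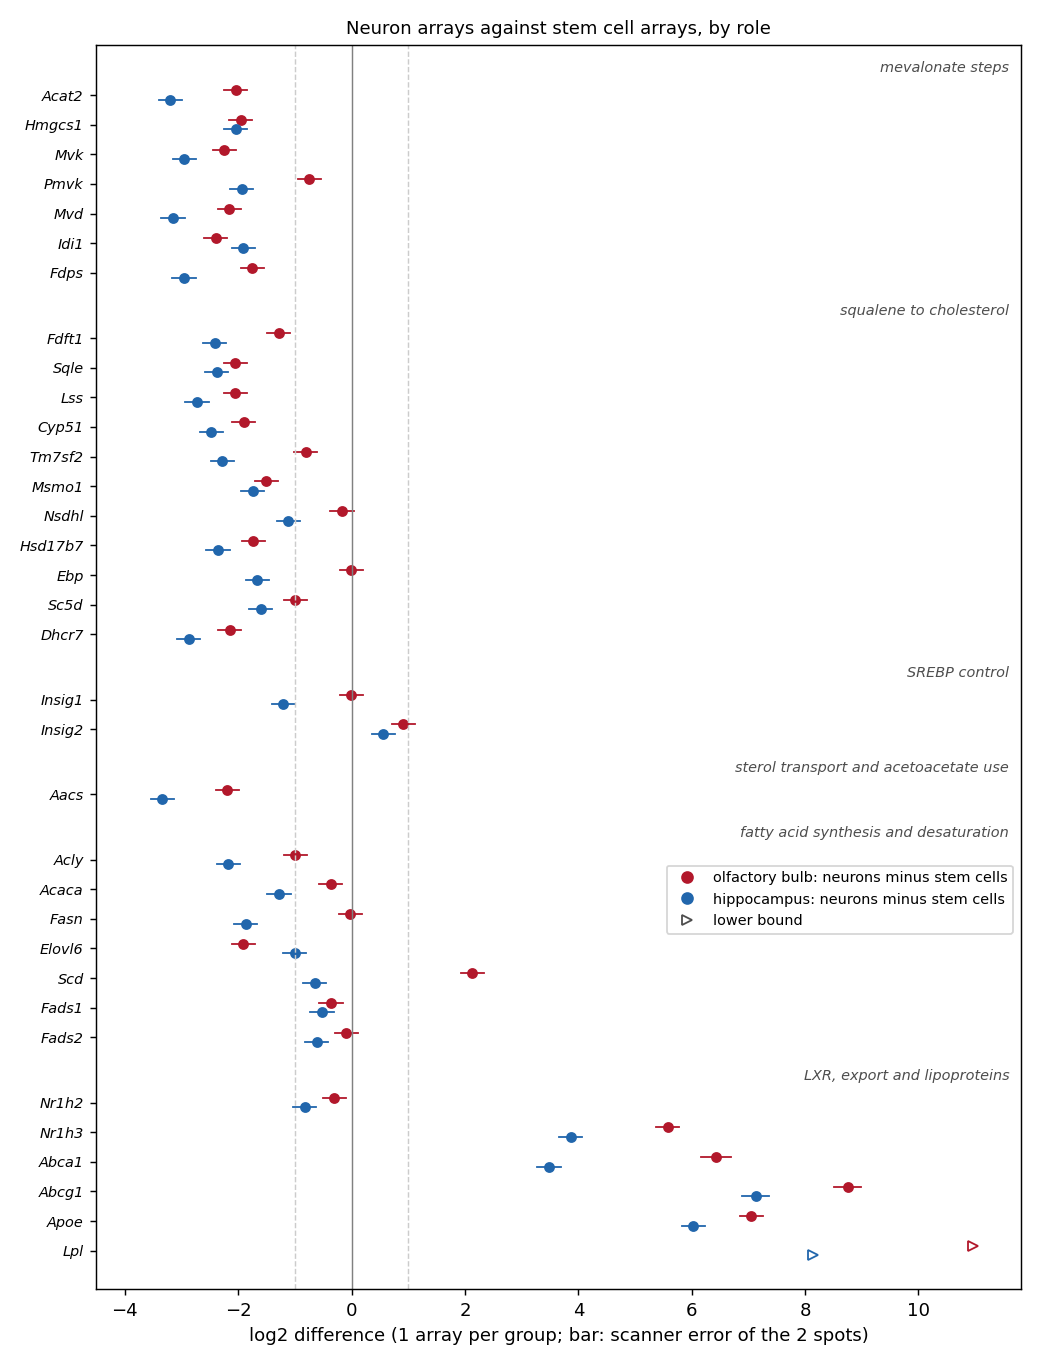
Log2 difference of the neuron array minus the stem cell array for the 34 members with a probe, grouped by role, for olfactory bulb (red) and hippocampus (blue), with bars for the scanner error of the 2 spots and open triangles for lower bounds. Genes of cholesterol synthesis lie at or left of 0 in both sources, and Nr1h3, Abca1, Abcg1, Apoe and Lpl lie far to the right, between 3.48 and 10.97.

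The additive fit took the 2 sources as replicates of a state and was the only test the design allowed, with 1 residual degree of freedom per gene. Its standard errors and p-values rest on the spread between the 2 sources on these slides, with each gene's variance moderated towards that of all genes. The prior drawn from all genes had 5.5 degrees of freedom, beside the 1 of the gene itself. The p-values do not separate state from slide. By this limma fit with Benjamini-Hochberg adjustment over 7113 genes, 15 members fell with state, against 12.1% of all genes, and 5 rose, against 19.5%. With quantile normalization 9 fell and 5 rose, beside 498 and 933 of the 7113 genes. All 20 changed in that direction in 2 of 2 sources. Of 18 cholesterol synthesis genes, 13 fell and none rose.

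The 7 mevalonate genes, which carry acetyl-CoA to farnesyl diphosphate, had a median difference of -2.05 in the olfactory bulb and -2.95 in the hippocampus. In OB Neu 6 of the 7 were lower by 2-fold or more, and in HPC Neu all 7, beside 20% and 26.9% of all genes. Acat2, the thiolase that joins 2 acetyl-CoA units, had a level of 5.25 in OB Neu against 7.30 in OB NSC, and 4.61 in HPC Neu against 7.80 in HPC NSC. Hmgcs1, which makes HMG-CoA, had a level of 5.70 in OB Neu against 7.65 in OB NSC, and 5.25 in HPC Neu against 7.29 in HPC NSC. Both neuron arrays lay below both stem cell arrays for these genes. The Hmgcs1 difference was -1.95 in the olfactory bulb and -2.04 in the hippocampus.

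Mvk, mevalonate kinase, had a level of 0.87 in OB Neu against 3.12 in OB NSC, and 0.98 in HPC Neu against 3.93 in HPC NSC. For Mvd, the decarboxylase that yields isopentenyl diphosphate, the level was 3.96 in OB Neu against 6.12 in OB NSC, and 3.76 in HPC Neu against 6.91 in HPC NSC. Neuron and stem cell arrays did not overlap for either gene. Mvk fell by 2.60 (SE 0.45, limma adjusted p = 0.0059) and Mvd fell by 2.65 (SE 0.47, limma adjusted p = 0.00652) over the 2 sources.

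Idi1, the isomerase that interconverts the isoprene units, differed more in the olfactory bulb: its level was 4.33 in OB Neu against 6.73 in OB NSC, and 3.96 in HPC Neu against 5.87 in HPC NSC. Its difference of -2.40 in the olfactory bulb was the most negative of any member there, beside -1.91 in the hippocampus. Fdps, farnesyl diphosphate synthase, had a level of 6.33 in OB Neu against 8.09 in OB NSC, and 6.0 in HPC Neu against 8.95 in HPC NSC. Its difference was -1.75 in the olfactory bulb and -2.96 in the hippocampus. Pmvk, phosphomevalonate kinase, was the exception of the group, at 3.68 in OB Neu against 4.43 in OB NSC and 3.20 in HPC Neu against 5.14 in HPC NSC. Its difference of -0.74 in the olfactory bulb was under 2-fold and it did not pass the fit (limma adjusted p = 0.0783).

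The 11 genes from squalene to cholesterol had a median difference of -1.50 in the olfactory bulb, with 7 of 11 lower by 2-fold or more, and of -2.36 in the hippocampus, with 11 of 11 lower. Of all genes, 20% and 26.9% were lower. Fdft1, squalene synthase, had a level of 0.72 in OB Neu against 2.01 in OB NSC, and 0.18 in HPC Neu against 2.60 in HPC NSC. Sqle, the squalene epoxidase that is a control point of the pathway, had 3.83 in OB Neu against 5.88 in OB NSC, and 3.50 in HPC Neu against 5.88 in HPC NSC. Between the stem cells of the 2 sources Sqle differed by less than the scanner error, but by 0.86 with spike-in scaling. Sqle fell by 2.22 over both sources (SE 0.43, limma adjusted p = 0.00959).

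Lss, which closes the sterol rings to give lanosterol, had a level of 2.19 in OB Neu against 4.24 in OB NSC, and 1.55 in HPC Neu against 4.28 in HPC NSC. Cyp51, the demethylase that acts on lanosterol, had 3.48 in OB Neu against 5.38 in OB NSC, and 2.69 in HPC Neu against 5.17 in HPC NSC. In the limma fit Lss fell by 2.39 (adjusted p = 0.00813) and Cyp51 fell by 2.19 (adjusted p = 0.0109). Dhcr7, the reductase of the last step to cholesterol, had 2.90 in OB Neu against 5.05 in OB NSC, and 2.68 in HPC Neu against 5.56 in HPC NSC. It fell by 2.51 (SE 0.45, limma adjusted p = 0.00685), the largest fall of the 11. Msmo1, a methylsterol oxidase, fell by 1.62 (limma adjusted p = 0.0295), and Hsd17b7, a reductase of the same demethylation, fell by 2.04 (limma adjusted p = 0.0144).

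The other 4 genes of the 11 were under 2-fold in the olfactory bulb and past it in the hippocampus. With spike-in scaling 11 of 11 were lower by 2-fold or more in the olfactory bulb and 10 of 11 in the hippocampus. The median of all genes was then -0.90 and 0.12. Ebp, the sterol isomerase, had a level of 4.65 in OB Neu against 4.66 in OB NSC, and 3.91 in HPC Neu against 5.57 in HPC NSC. The olfactory bulb pair differed by less than the scanner error for Ebp, whereas the hippocampal pair differed by -1.66. Nsdhl, a sterol dehydrogenase, had 1.47 in OB Neu against 1.64 in OB NSC, and 0.68 in HPC Neu against 1.80 in HPC NSC. Its olfactory bulb difference of -0.17 was also within scanner error. Tm7sf2, a sterol reductase, differed by -0.81 in the olfactory bulb and -2.28 in the hippocampus. Sc5d, a sterol desaturase, came just short of 2-fold in the olfactory bulb at -1.0 and differed by -1.60 in the hippocampus. These 4 genes did not pass the fit, with limma adjusted p-values of 0.272 for Ebp, 0.327 for Nsdhl, 0.0622 for Tm7sf2 and 0.0657 for Sc5d.

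Across all 18 cholesterol synthesis genes the median was -1.83 in the olfactory bulb and -2.37 in the hippocampus. All 18 lay below 0 in the hippocampus under every scaling and background correction tried. In the olfactory bulb all 18 did so with 3 of 5 of these settings, 17 did with normexp and 16 with quantile normalization, where Nsdhl and Ebp stood at 0.01 and 0.34. Among the 15 with a promoter, the 12 that hold CCAAT had a median of -1.74 in the olfactory bulb and -2.16 in the hippocampus. Acat2, Cyp51 and Dhcr7, which lack it in that window, had medians of -2.05 and -2.87.

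**Figure D2:**
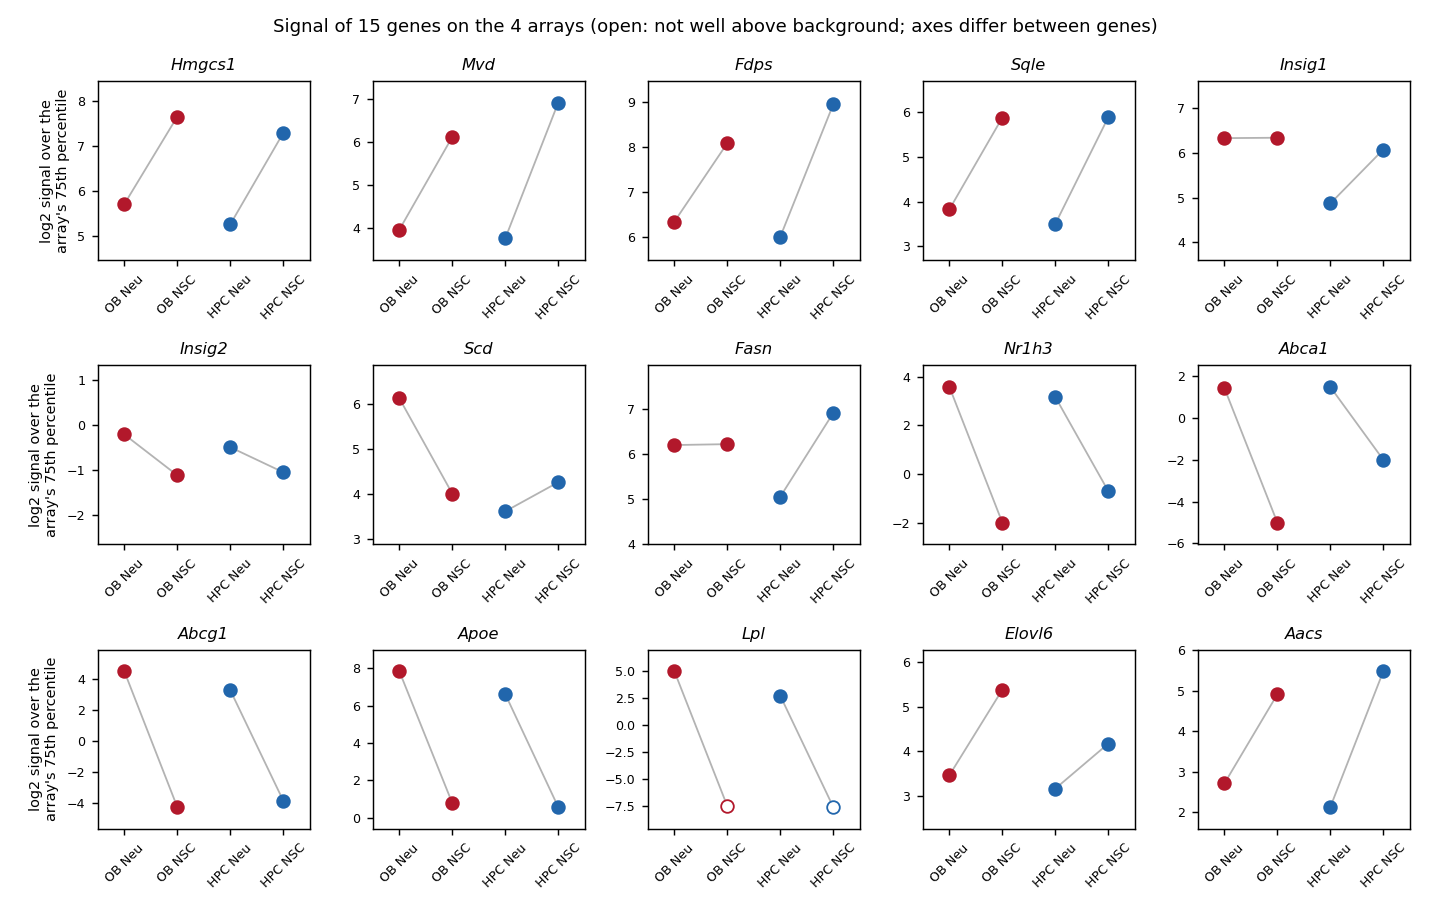
Log2 signal over the array's 75th percentile for 15 members on each of the 4 arrays, with olfactory bulb in red and hippocampus in blue, a line joining the neuron array to its stem cell array, and open circles where the spot was not well above background. Axes differ between genes. The joining line rises towards the stem cells for Hmgcs1, Mvd, Fdps, Sqle and Aacs in both sources, and falls for Nr1h3, Abca1, Abcg1, Apoe and Lpl, while Scd falls in the olfactory bulb and rises in the hippocampus.

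Of the SREBP control genes, Insig1, itself a target of SREBP, was not lower with the synthesis genes in the olfactory bulb. Its level was 6.33 in OB Neu against 6.34 in OB NSC, and 4.87 in HPC Neu against 6.08 in HPC NSC. HPC Neu stood below the other arrays, which lay close together. All 4 Insig1 probes gave the same picture, with differences between -0.32 and -0.01 in the olfactory bulb and between -1.48 and -1.20 in the hippocampus. Insig2, its relative that is not driven by SREBP in the same way, was at -0.21 in OB Neu against -1.12 in OB NSC, and -0.49 in HPC Neu against -1.05 in HPC NSC. Neither gene passed the limma fit, with adjusted p = 0.375 for Insig1 and 0.232 for Insig2.

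Aacs, which activates the ketone body acetoacetate for lipid synthesis, had a level of 2.72 in OB Neu against 4.91 in OB NSC, and 2.14 in HPC Neu against 5.48 in HPC NSC. Its hippocampal difference of -3.34, a 10.1-fold lower signal, was the most negative of any member there. It fell by 2.77 over both sources (SE 0.48, limma adjusted p = 0.00611).

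The 7 genes of fatty acid synthesis and desaturation differed less with state than the sterol genes, with medians of -0.36 in the olfactory bulb and -1.0 in the hippocampus. In OB Neu 1 was higher by 2-fold or more (Scd) and 1 lower (Elovl6), where 26.9% and 20% of all genes were. In HPC Neu 4 were lower (Acly, Fasn, Acaca and Elovl6), where 26.9% of all genes were, and none higher, where 21.8% were. With spike-in scaling 6 of 7 were lower in OB Neu, where the median of all genes was -0.90. With quantile normalization or spike-ins 2 of 7 were lower in HPC Neu, where the median of all genes was -0.13 and 0.12. Acly, which makes cytosolic acetyl-CoA from citrate and so feeds both pathways, had a level of 6.67 in OB Neu against 7.66 in OB NSC, and 5.79 in HPC Neu against 7.96 in HPC NSC. It was the one gene of the 7 that passed the fit, with a fall of 1.58 (SE 0.48, limma adjusted p = 0.0482).

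Fasn, fatty acid synthase, had a level of 6.20 in OB Neu against 6.22 in OB NSC, and 5.05 in HPC Neu against 6.92 in HPC NSC. The olfactory bulb pair was equal within scanner error and the hippocampal pair differed 3.65-fold. A second Fasn probe differed by -0.25 in the olfactory bulb and -1.91 in the hippocampus. With spike-in scaling, Insig1, Ebp and Fasn stood at -1.04, -1.04 and -1.05 in the olfactory bulb. Acaca, acetyl-CoA carboxylase, differed by -0.37 in the olfactory bulb and -1.28 in the hippocampus. Elovl6, an elongase of long-chain saturated fatty acids, had 3.47 in OB Neu against 5.38 in OB NSC, and 3.17 in HPC Neu against 4.17 in HPC NSC. OB NSC stood highest, and the olfactory bulb difference of -1.91 was larger than the hippocampal one of -1.0 (limma adjusted p = 0.0537).

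Scd, the desaturase that makes monounsaturated fatty acids, was the member with opposite signs in the 2 sources. Its level was 6.14 in OB Neu against 4.01 in OB NSC, and 3.61 in HPC Neu against 4.26 in HPC NSC. OB Neu stood alone above the other arrays, which lay within 0.65 log2 units of each other. Its difference was 2.13 in the olfactory bulb, with a range of 1.1 to 2.59 over the settings tried, and -0.65 in the hippocampus, with a range of -1.11 to -0.06. The adjusted p of the limma fit was 0.449. Scd has close relatives in the rat genome, so part of its signal may come from another desaturase. Fads1 and Fads2, desaturases of polyunsaturated fatty acids, differed by less than 2-fold, by -0.36 and -0.09 in the olfactory bulb and by -0.52 and -0.62 in the hippocampus.

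Genes of LXR signalling, cholesterol export and lipoproteins were higher on the neuron arrays in 5 of 6 cases, with medians of 6.74 in the olfactory bulb and 4.95 in the hippocampus. Of all genes, 26.9% and 21.8% were higher by 2-fold or more. Nr1h3, which encodes LXR alpha, had a level of 3.57 in OB Neu against -2.01 in OB NSC, and 3.16 in HPC Neu against -0.71 in HPC NSC. Nr1h2, which encodes the widely expressed LXR beta, had 2.81 in OB Neu against 3.11 in OB NSC, and 2.98 in HPC Neu against 3.81 in HPC NSC. Nr1h3 rose by 4.72 (SE 0.54, limma adjusted p = 0.00109), while Nr1h2 differed by -0.31 in the olfactory bulb and -0.83 in the hippocampus and did not pass the fit (limma adjusted p = 0.357).

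Abca1, which loads cholesterol onto lipid-poor apolipoproteins, had a level of 1.42 in OB Neu against -5.01 in OB NSC, and 1.48 in HPC Neu against -2.00 in HPC NSC. The neuron arrays were level with each other, and the stem cell arrays differed by 3.01 log2 units, with OB NSC the lower. With normexp the difference between the stem cells was -1.71, and that of OB Neu from OB NSC was 4.62. Abcg1, which exports cholesterol to larger lipoproteins, had 4.52 in OB Neu against -4.23 in OB NSC, and 3.31 in HPC Neu against -3.81 in HPC NSC. With normexp the Abcg1 differences were 7.23 in the olfactory bulb and 5.53 in the hippocampus, in place of 8.76 and 7.13. Both rose, Abca1 by 4.96 (SE 0.72, limma adjusted p = 0.00298) and Abcg1 by 7.94 (SE 0.53, limma adjusted p = 0.000117).

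Apoe, the main lipid carrier of the brain and a product of astrocytes and macrophages, had a level of 7.84 in OB Neu against 0.79 in OB NSC, and 6.61 in HPC Neu against 0.58 in HPC NSC. It rose by 6.54 (SE 0.47, limma adjusted p = 0.00015). Lpl, lipoprotein lipase, which frees fatty acids from lipoproteins and is abundant in fat cells and macrophages, had 5.0 in OB Neu and 2.73 in HPC Neu. In OB NSC and HPC NSC its spots were not well above background, so the differences are bounds, at least 10.97 in the olfactory bulb and at least 8.14 in the hippocampus as the scanner software corrected the background. With normexp the differences were 8.60 and 5.83. It also passed the fit, which took the dim spots as they stood (limma adjusted p = 5.86e-05). Beside these genes, markers of astrocytes summed to 104.2 in OB Neu against 31.9 in OB NSC and to 120.0 in HPC Neu against 41.9 in HPC NSC, with Gfap and Aqp4 among those not well above background in stem cells. Of the 8 astrocyte markers, 6 were higher by 2-fold or more in both sources. Aldoc was lower in both, at -2.24 in the olfactory bulb and -1.71 in the hippocampus, and S100b stood at 1.05 and -0.30. Microglia and macrophage markers summed to 7.10 in OB Neu against 0.830 in OB NSC and to 6.78 in HPC Neu against 0.803 in HPC NSC, and Itgam and Cx3cr1 were not well above background on any array. Of the 6 measured, 4 were higher by 2-fold or more in both sources. Cd68 stood at 0.75 in the olfactory bulb and 0.40 in the hippocampus, and Csf1r at 1.44 and 0.47.

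**Figure D3:**
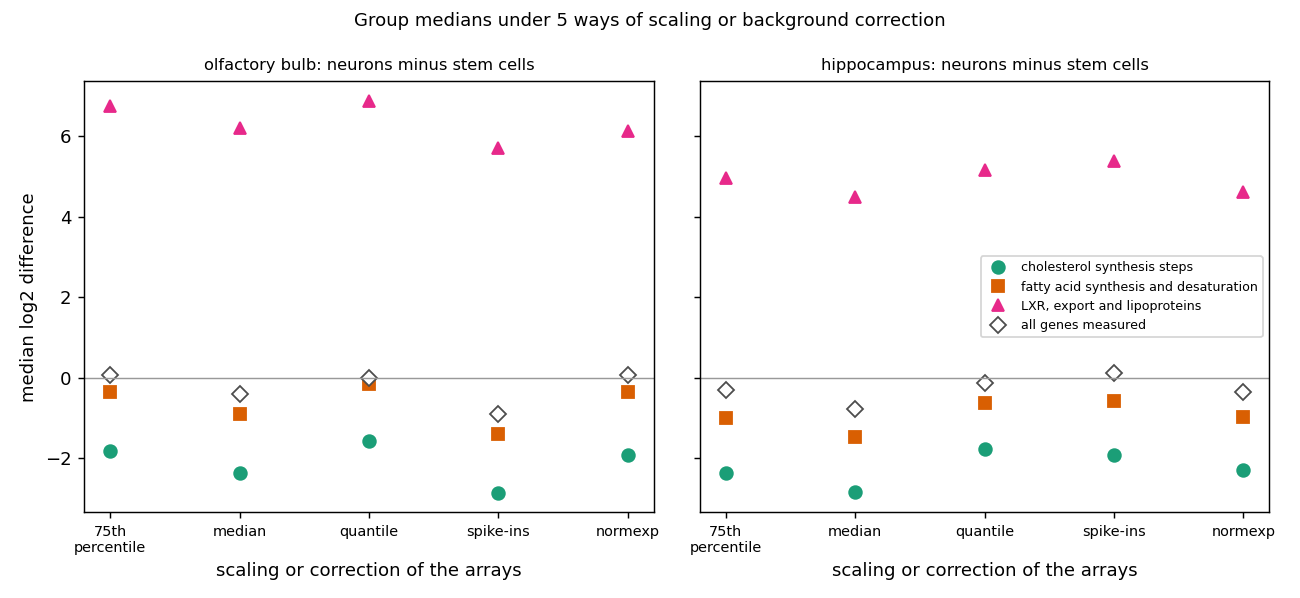
Median log2 difference (neurons minus stem cells) of the 18 cholesterol synthesis genes, the 7 fatty acid genes, the 6 LXR and export genes and all genes measured, for olfactory bulb (left) and hippocampus (right), under 4 scalings of the arrays and under normexp background correction. The cholesterol synthesis median stays between -2.86 and -1.58 in the olfactory bulb and between -2.83 and -1.78 in the hippocampus, below the median of all genes in each setting.

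The next question was whether the sources differed within a state. Among stem cells, few members differed by 2-fold or more between the olfactory bulb and hippocampus, near the shares of all genes. Of 33 measured, 1 was higher in OB NSC, where 4.16% of 6029 genes were, and 2 were lower, where 7% were. With spike-in scaling 6 were higher and 1 lower, and with quantile normalization 3 and 2. The median of all genes was 0.43 and -0.25 with these settings. Elovl6 was the higher one, by 1.21, and a second Elovl6 probe gave 1.56. Abca1 and Nr1h3 were the lower ones, by 3.01 and 1.30. The median member differed by -0.39, close to the median of all genes of -0.43.

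Among neuron arrays, 6 of 34 members were higher by 2-fold or more in OB Neu than in HPC Neu, where 7.66% of 7000 genes were, and none was lower, where 8% of genes were. They were Scd by 2.52, Lpl by 2.27, Insig1 by 1.46, Apoe by 1.22, Abcg1 by 1.21 and Fasn by 1.15. Scaling the arrays to the spike-in RNAs left only Scd and Lpl past 2-fold. The median member was higher by 0.52, while the median of all genes was -0.01. The 18 cholesterol synthesis genes had a median of 0.50, with 16 of 18 above 0, but 12 of 18 lay below 0 with spike-in scaling, so their direction between the sources depends on the scaling. Beside these values, all 4 measured adipocyte markers (Adipoq, Cidec, Fabp4 and Retn) were higher in OB Neu than in HPC Neu, by 1.97 to 2.89, and the part of such cells was not tested. The source term of the limma fit called no member and 0% of 7113 genes, with 399 genes and no member at an unadjusted p under 0.05; with normexp it called 14 genes higher and 55 lower, none of them a member.

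**Figure D4:**
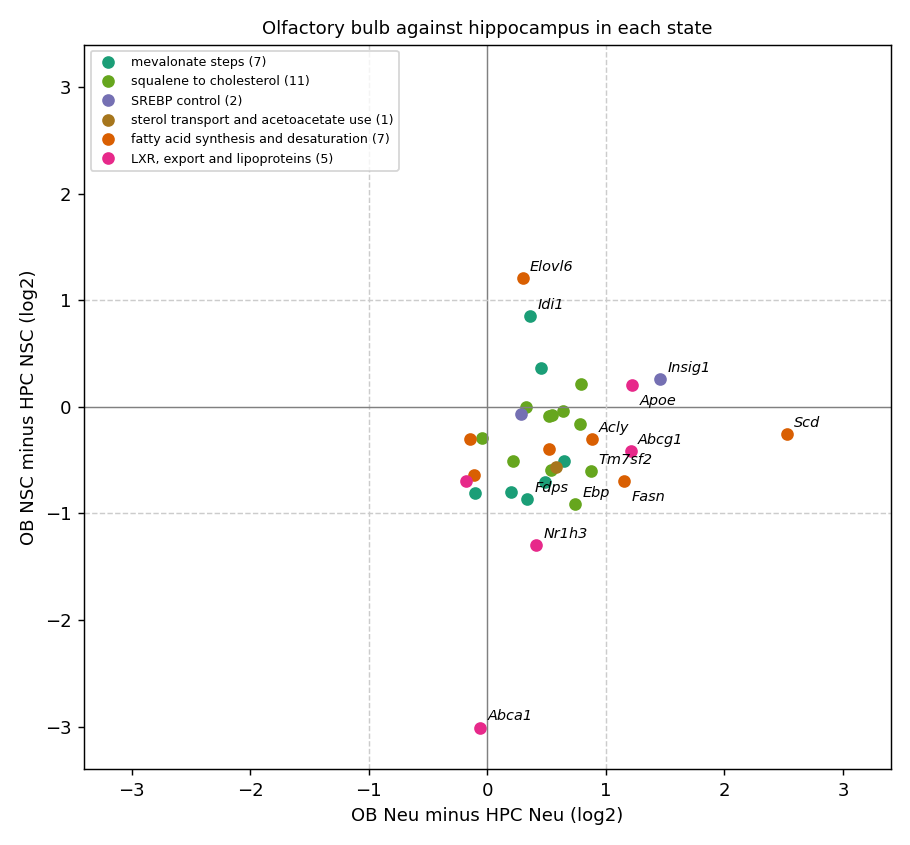
Olfactory bulb minus hippocampus on the neuron arrays (horizontal axis, log2) and on the stem cell arrays (vertical axis, log2) for the 33 members measured in both, coloured by role, with dashed lines at 2-fold. Scd, Insig1, Apoe, Abcg1 and Fasn lie right of the dashed line at 2-fold, Elovl6 lies above its line, and Abca1 and Nr1h3 lie below theirs. Lpl is left out because neither stem cell spot was well above background.

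The change with state was set against itself between sources for the 33 members well above background on all 4 arrays. The olfactory bulb change minus the hippocampal change had a median of 0.94 over members and 0.34 over all 5495 such genes. Above 0 were 31 of 33 members, beside 3907 of the 5495 genes. But with spike-in scaling the medians were -0.52 and -1.12, and 7 of 33 members were above 0. The members' median lay 0.60 above that of all genes, a distance that scaling by a constant cannot alter, and 0.41 above it with quantile normalization and 0.50 with normexp. Of the 33, 15 differed by 1 log2 unit or more (45.5%, beside 13.8% of the 5495 genes), among them Abca1 by 2.95, Scd by 2.78, Fasn by 1.85, Ebp by 1.65 and Insig1 by 1.20. With spike-in scaling Abca1 and Scd alone did so, by 1.48 and 1.31 (6.06%, beside 1.47% of all genes), and with normexp Abca1 differed by 1.61. At the 75th percentile scaling no member differed by as much in the other direction, and Elovl6 at -0.91 and Idi1 at -0.49 were the members below 0. With spike-in scaling 26 of 33 lay below 0, beside 5200 of the 5495 genes. Of the 26, 7 lay at -1 or less (21.2% of the 33, beside 58.7% of all genes), among them Elovl6 at -2.37. This contrast has no residual degree of freedom and could not be tested.

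Genes of the same pathways outside the member set were read from 3 lists. In the list of synthesis and control, 16 of 22 genes had a probe and 15 were measured, of which 5 (33.3%) were lower in both sources and 2 (13.3%) higher, beside 16.8% and 18.5% of all genes. Srebf2, the SREBP gene of the cholesterol branch, had -1.26 in OB Neu against 0.19 in OB NSC, and -1.74 in HPC Neu against -0.12 in HPC NSC. Acsl3, an acyl-CoA synthetase, differed by -1.73 in the olfactory bulb and -1.30 in the hippocampus. Among the higher ones, Thrsp, a lipogenic regulator of liver and fat, differed by 7.63 in the olfactory bulb and 3.82 in the hippocampus.

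In the list of storage, transport and turnover, 15 of 23 genes were measured, and 8 (53.3%) were higher in both sources and 1 (6.67%) lower. The higher ones were Apoc1, Apod, Ch25h, Cyp27a1, Fabp3, Fabp7, Lipa and Npc2. Cyp27a1 and Ch25h, which make oxysterols that activate LXR, were higher by at least 6.70 and at least 4.73 in the olfactory bulb and by at least 4.39 and at least 2.57 in the hippocampus. Lipa and Npc2, which release cholesterol in lysosomes, were higher by 2.59 and 2.38 in the olfactory bulb and by 2.13 and 1.58 in the hippocampus. Scarb1, a lipoprotein receptor, differed by -1.35 in the olfactory bulb and -2.0 in the hippocampus. In the list of fatty acid oxidation and ketone bodies, 13 of 15 genes were measured, and 2 (15.4%) were higher in both sources, close to the share of all genes, and none lower. Pparg, the nuclear receptor that drives fat cell formation, was higher by at least 7.12 in the olfactory bulb and at least 5.77 in the hippocampus.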

How the data were processed

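Total RNA of 4 rat cell groups, pooled from 3 experiments each, was hybridised to 4 Agilent 1-colour arrays (Cy3). The values deposited are spot intensity, on a linear scale. Agilent Feature Extraction 10.5.1.1 made them, per the file headers, by subtracting background within an array, with no scaling between arrays recorded. The authors' table held the same intensity values. Per the file headers the probe design is of build rn4. The scanner's error estimate of each intensity, as deposited, gave the error of a difference.

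Computed here were log2 processed signals minus each array's 75th percentile. Spots marked as an outlier on any array were left out, and 254 of 41012 non-control probes had no spot left. Accessions were matched without version to RefSeq genes of GRCr8, used for names only: of 40758 probes, 10783 matched 1 symbol and 29975 none. The brightest probe stood for a gene with several. A gene entered a comparison when well above background on 1 of its arrays, and a dim side gave a bound, from the lowest signal well above background on that array. The call was 2-fold. limma 3.58.1 in R 4.3.3 fitted state and source over all 4 arrays and was tested on simulated data. Spots of a probe printed repeatedly had a median SD of 0.058 to 0.088 log2 units, which is technical noise and not that of cultures, and the number of arrays limits the precision.

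Alternatives were scaling to the median or to 7 spike-in probes, quantile normalization, normexp with offset 50 (on median spot signals, as the files used hold no mean signal), 2 filters on dim probes, the mean over probes, the authors' table, and, added after the data were seen, centring on all genes and 2 more motifs. Every member with a probe may be named, and other pathway genes where they passed 2-fold in both sources; some of these are not reported here. The members and lists were chosen with earlier results of these data known. Promoter sequences are RefSeq's, GRCr8.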

Additional observations from a re-analysis of the deposited data

Results flagged for a closer look

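Scd was singled out because its change with state had opposite signs in the 2 sources: it was higher by 2.13 log2 units in OB Neu than in OB NSC, and HPC Neu differed from HPC NSC by -0.65. With 1 array per group the difference between these changes was not tested. The hippocampal value was under 2-fold and came close to 0, at -0.06, with quantile normalization.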

How the results depend on the processing

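No paired analysis was possible because the labels carry no replicate numbers; the limma fit has the source as a term. All counts and medians given here compare 2 arrays, so no replicate could be left out. Signal over background limits Lpl to bounds in the stem cells. No member past 2-fold changed sign under any alternative tried. The authors' table holds the same values and the dim filters alter the fold of Lpl alone, so neither tests the other folds; by limma the filters gave 19 and 14 members lower in place of 15. Scaling moved them: spike-ins shifted the median of all genes by -0.98 and 0.44 in the state comparisons of olfactory bulb and hippocampus. The olfactory bulb state median (-0.90) was -1.44 with median scaling, -0.56 with quantile normalization and -1.93 with spike-ins, where 27 members were lower in place of 15. The hippocampal state median (-1.81) was -2.27 with median scaling, -1.16 with quantile normalization, -1.37 with spike-ins and -1.49 centred on all genes. Between stem cells (-0.39) the median was -0.074 with quantile normalization, 0.47 with spike-ins and 0.038 centred, with 1 member lower in place of 2 by the last 2 settings, and 3, 6 and 2 members higher in place of 1. Between neurons (0.52) spike-ins gave -0.087, and 2 members higher in place of 6. The limma fit called 9 members lower with quantile normalization in place of 15. The median difference of changes (0.94) was 0.56 with quantile normalization and -0.52 with spike-ins. For spike-ins and centring the zero point of each array or comparison moves every gene alike; for quantile normalization the cause was not tested.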
